A study of Mus with 2 samples.

Results

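The ligands, receptors and co-receptors of vascular endothelial growth factor (VEGF) and angiopoietin signalling were followed through the cell classes of the newborn mouse kidney. The 9 genes were chosen by symbol among the 28693 features of the count matrices: the ligands Vegfa, Angpt1 and Angpt2, the VEGF receptors Kdr and Flt1, the co-receptors Nrp1 and Nrp2, and the receptors Tek and Tie1. All 9 were found and all 9 passed the filter on low counts. None of them was used to form or name a cell class.

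VEGF-A is a secreted growth factor that binds the receptor tyrosine kinases KDR and FLT1 on endothelial cells. KDR carries most of the signal for endothelial growth, while FLT1 binds the ligand tightly and signals weakly, and a secreted form of it traps the ligand. Neuropilins bind both VEGFs and class 3 semaphorins. Angiopoietin 1 activates TEK (also called TIE2) and stabilises vessels, angiopoietin 2 competes with it for TEK in many settings, and TIE1 is a relative of TEK that modulates it. In the kidney, VEGF-A from podocytes is known for its part in forming and keeping the glomerular capillaries.

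The series holds single-cell RNA libraries of whole kidneys at postnatal day 0, made on the 10x Chromium platform from 3′ cDNA ends. Its design names 2 control libraries (Rbpj c/+ ; Foxd1cre/+) and 2 mutant libraries (Rbpj c/- ; Foxd1cre/+), of which the mutants, replicates 1 and 2, were analysed here. The controls were not analysed here, and every comparison below is between cell classes of mutant kidneys and none is between genotypes. Foxd1cre was used to delete Rbpj, the DNA-binding partner of Notch receptors, in the renal interstitium. The labels do not say how many animals each library holds, and p-values measure only the spread between these 2 libraries.

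After filtering, 5910 cells of replicate 1 and 4937 of replicate 2 remained, with medians of 11716.5 and 12196 unique molecular identifiers (UMIs) per cell, and 5 of their barcodes occurred in both libraries. The cells formed 36 clusters, of which 30 were named by marker genes and merged into 11 classes. Names end in "-like" because they rest on markers alone. The endothelial-like class (700 and 457 cells) had UMIs for 8 of 8 endothelial markers in at least 10% of cells, and the podocyte-like class (427 and 298) for 6 of 6 podocyte markers. The stroma-like class (1309 and 1108) showed 7 of 7 stromal markers and the mural-like class (31 and 27) 6 of 7 mural markers. Levels are given in CPM, the UMIs of a gene scaled to the total UMIs of its class in that library. Rbpj stood at 25.4 and 24.3 CPM in stroma-like cells and at 46.7 and 47.3 CPM over all cells, and 3′ counts cannot show whether an internal exon was lost. Foxd1, whose promoter drives the Cre, was at 88.3 and 81.9 CPM in stroma-like cells and at 267 and 244 CPM in podocyte-like cells. The 2 libraries differed in sex-linked genes, with Xist at 1169 CPM in replicate 1 and 0.187 CPM in replicate 2, and Ddx3y at 0 UMIs and at 74.0 CPM. They therefore did not come from 1 animal or 1 shared pool, and sex cannot be told apart from library.

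Vegfa (ENSMUSG00000023951, GRCm38.p6 chromosome 17, 46016993 to 46032377) was highest in podocyte-like cells, the filtration cells that wrap the glomerular capillaries. There it reached 781 CPM in replicate 1 (4159 UMIs) and 687 CPM in replicate 2 (3060 UMIs), a mean of 734 ± 66.5 CPM (SD, n = 2). These cells held 55.4% and 56.4% of all Vegfa UMIs. Every other named class lay far below in both libraries: early nephron-like cells followed at 49.1 and 47.7 CPM, then proximal tubule-like cells at 37.3 and 30.9 CPM. Loop of Henle-like cells stood at 32.2 and 23.3 CPM, ureteric epithelium-like cells at 23.7 and 23.7 CPM, and nephron progenitor-like cells at 24.0 and 22.4 CPM. From the proximal tubule down to the ureteric epithelium, and on to the progenitors, neighbours in this order overlapped between libraries. Stroma-like cells had 21.7 and 20.5 CPM. Mural-like cells had 17.0 and 12.9 CPM on 5 and 4 UMIs, and endothelial-like cells, which carry the receptors, had 10.5 and 8.20 CPM. Immune-like and erythroid-like cells, with at most 3.76 CPM, were the lowest.

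Against the mean of the other nephron epithelial classes, Vegfa was higher in podocyte-like cells by 4.28 ± 0.07 on the log2 scale (SE, adjusted p = 5.8e-24, edgeR's quasi-likelihood test, p-values adjusted by the method of Benjamini and Hochberg). In endothelial-like cells it was lower than in the mean of the other kidney classes, with a log2 difference of -2.18 ± 0.11 (adjusted p = 2.5e-14, same test). That mean, taken on the log2 scale, left out mural-like, immune-like and erythroid-like cells. The same holds below wherever the mean of the other classes is the reference. Stroma-like cells were also lower than this reference, with -0.88 ± 0.09 (adjusted p = 5.8e-09), though not lower than the classes left out. Counts from 3′ ends do not tell the splice forms of Vegfa apart.

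The podocyte-like class was not uniform in Vegfa. Its larger cluster held 369 and 251 cells with 926 and 853 CPM. The smaller cluster, led by R3hdml, held 58 and 47 cells with 337 and 374 CPM. Vegfa was thus 2.75-fold higher in the larger cluster in replicate 1 (95% interval from counting error 2.49 to 3.04) and 2.28-fold higher in replicate 2 (2.08 to 2.50). Nrp1, in contrast, was at 481 and 530 CPM in the larger and at 511 and 489 CPM in the R3hdml-led cluster, so the direction of the gap turned between libraries. An unnamed cluster led by Tagln, whose cells had both podocyte and mural markers, held 105 and 113 CPM of Vegfa. These are values of clusters in 2 libraries and no test was made between them.

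**Figure D1:**
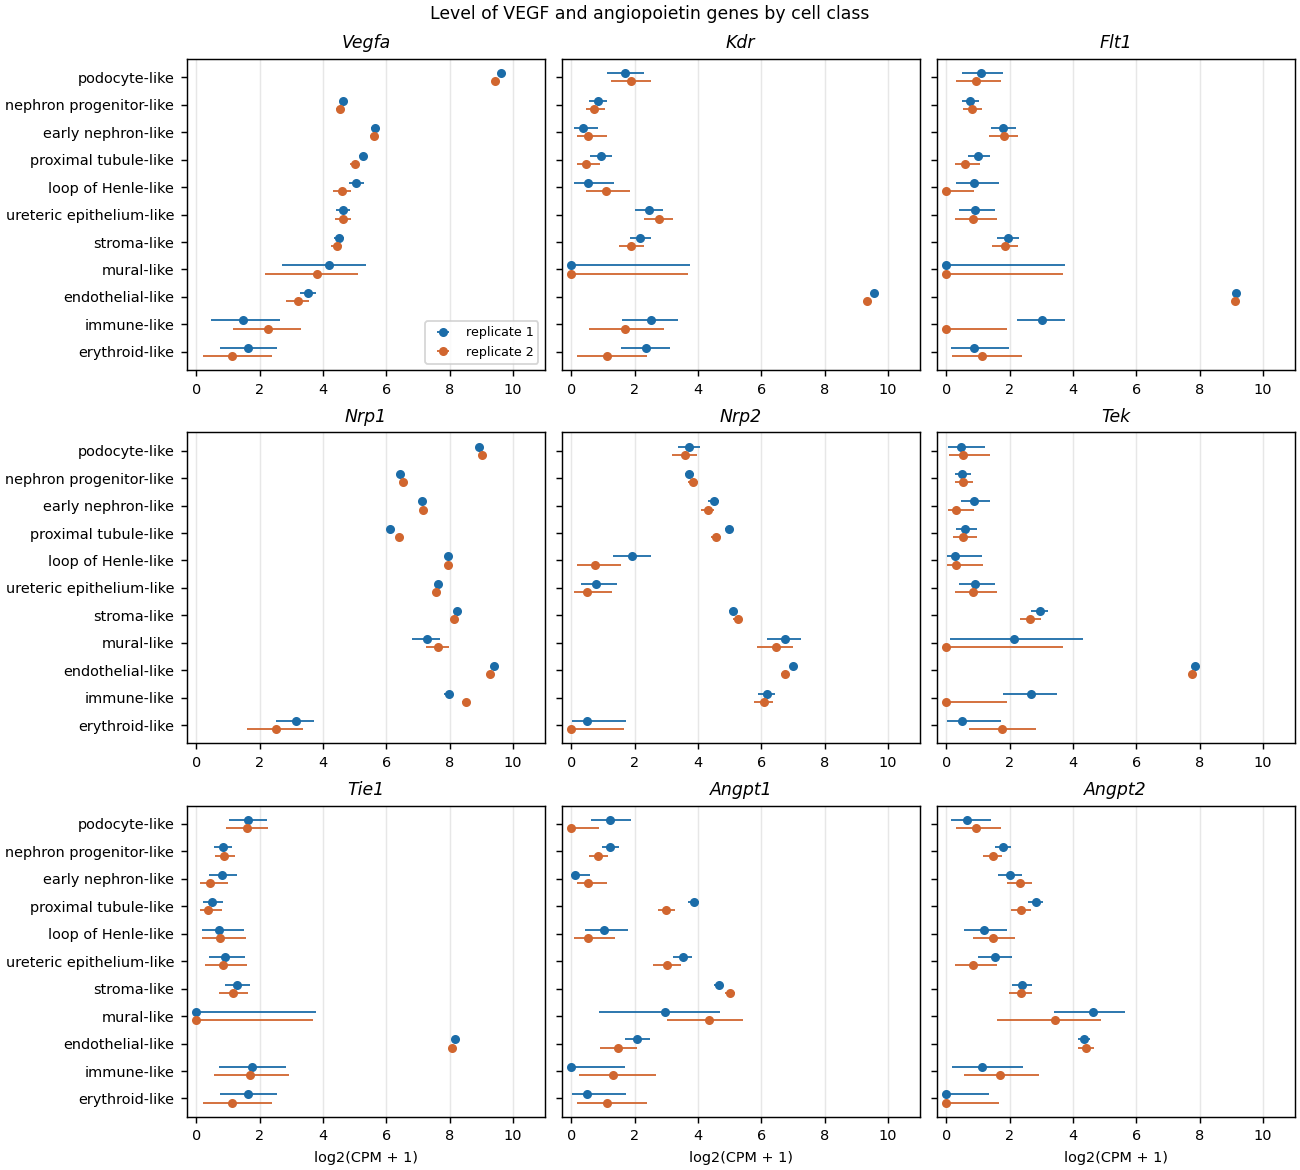
Level of each of the 9 genes in the 11 named cell classes, as log2(CPM + 1), with blue for replicate 1 and orange for replicate 2; bars are exact Poisson 95% intervals and cover counting error only. Kdr, Flt1, Tek and Tie1 stand out in the endothelial-like class, Vegfa in the podocyte-like class, and Nrp1 is spread over all classes except the erythroid-like.

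Kdr (ENSMUSG00000062960, chromosome 5, 75932827 to 75979072), which encodes VEGF receptor 2, was found almost wholly in endothelial-like cells. It stood there at 750.5 and 639 CPM on 7400 and 3974 UMIs. These were 96.8% and 95.6% of all Kdr UMIs. The second-ranked class, the ureteric epithelium-like, had 4.50 and 5.76 CPM, and no other named class exceeded 4.78 CPM in either library. No Kdr UMI was counted in mural-like cells, which allows up to 10.2 and 9.70 CPM there at a floor of 3 counts.

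Flt1 (ENSMUSG00000029648, chromosome 5, 147561604 to 147726438), which encodes VEGF receptor 1, followed the same distribution. Endothelial-like cells had 569.9 and 558 CPM (5619 and 3469 UMIs), or 96.7% and 95.8% of its UMIs. The class in second place, the immune-like, had 7.17 CPM on 12 UMIs in replicate 1 and 0 UMIs in replicate 2. Stroma-like cells had 2.83 and 2.61 CPM and early nephron-like cells 2.49 and 2.50 CPM. Secreted and membrane forms of FLT1 could not be told apart in these counts.

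Tie1 (ENSMUSG00000033191, chromosome 4, 118471191 to 118489849) was at 285 and 268.5 CPM in endothelial-like cells, and at 2.39 CPM or less in every other named class. Tek (ENSMUSG00000006386, chromosome 4, 94739086 to 94874976) was at 232 and 216 CPM there, which was 92.9% and 91.7% of its UMIs. Stroma-like cells came next for Tek, with 6.71 and 5.30 CPM (90 and 57 UMIs). The 2 receptor genes of the angiopoietin arm therefore shared the endothelial-like class with Kdr and Flt1.

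Against the mean of the other kidney classes, the 4 receptors were higher in endothelial-like cells by log2 differences of 9.16 ± 0.08 for Kdr and 9.12 ± 0.10 for Flt1 (SE). Tie1 and Tek were higher by 8.46 ± 0.07 and 8.46 ± 0.12. The adjusted p-values were 3.7e-28, 2.4e-26, 3.7e-28 and 1.2e-25 in the same order (edgeR's quasi-likelihood test, Benjamini-Hochberg). Since most other classes held only single-digit CPM, the sizes of these differences depend on few UMIs in the reference classes. In barcodes of 10 to 100 UMIs, which hold free RNA rather than cells, Kdr was at 57.6 and 61.7 CPM and Flt1 at 66.7 and 100.4 CPM. The part of such RNA in the low values outside the endothelium was not tested.

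Nrp1 (ENSMUSG00000025810, chromosome 8, 128358591 to 128505476), the co-receptor for VEGF-A and class 3 semaphorins, was the most widely distributed of the 9. Endothelial-like cells ranked first with 675 and 616 CPM, podocyte-like cells second with 488 and 516 CPM. Immune-like cells had 249 and 367 CPM and overlapped with stroma-like cells at 301 and 278 CPM. Loop of Henle-like cells held 248 and 245 CPM, ureteric epithelium-like cells 197 and 190 CPM, and mural-like cells 153 and 197 CPM. Early nephron-like (139 and 143 CPM), nephron progenitor-like (84.4 and 90.2 CPM) and proximal tubule-like cells (68.4 and 82.5 CPM) were lower, in an order without overlap. Erythroid-like cells, at 7.84 and 4.74 CPM, were far below all other named classes.

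The endothelial share of Nrp1 was 26.6% and 20.6% of its UMIs, against 16.2% and 16.1% for the stroma and 10.4% and 12.4% for podocytes. Nrp1 was higher in endothelial-like cells than in the mean of the other classes by 1.91 ± 0.07 (log2, SE, adjusted p = 3.4e-17, edgeR's quasi-likelihood test). It was higher in podocyte-like cells than in the other nephron epithelia by 1.79 ± 0.08 (adjusted p = 5.6e-15). In stroma-like cells the difference was smaller, 0.57 ± 0.08 (adjusted p = 1.1e-06).

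Nrp2 (ENSMUSG00000025969, chromosome 1, 62703317 to 62818692), the relative of Nrp1 that also binds VEGF-C, followed another order. Endothelial-like cells had 127 and 106 CPM, mural-like cells 106 and 87.3 CPM and immune-like cells 71.1 and 67.0 CPM. Stroma-like cells had 33.3 and 37.2 CPM. Among the epithelia it was highest in proximal tubule-like cells (30.7 and 22.7 CPM) and early nephron-like cells (21.6 and 18.7 CPM). Podocyte-like cells, the second-highest class for Nrp1, had only 12.2 and 11.01 CPM of Nrp2, in overlap with nephron progenitor-like cells at 12.2 and 13.4 CPM. Loop of Henle-like cells had 13 and 3 UMIs (2.76 and 0.673 CPM) and ureteric epithelium-like cells 5 and 2 UMIs.

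The neuropilins thus moved in opposite directions between the tubule segments. From proximal tubule-like to loop of Henle-like cells, Nrp1 was higher by 1.58 ± 0.12 and Nrp2 lower with a log2 difference of -4.06 ± 0.29 (SE, adjusted p = 6.0e-11 and 3.2e-11, edgeR's quasi-likelihood test). Angpt1 (-3.85 ± 0.59) and Angpt2 (-1.88 ± 0.40) were also lower in the loop of Henle-like cells (adjusted p = 8.5e-06 and 5.7e-04). Vegfa was lower by a smaller amount, -0.43 ± 0.12 (adjusted p = 0.0051). Of the 9 genes 1 was called higher and 4 lower, while 44.3% of the 15194 genes tested were called in this comparison. The Vegfa call was lost with a mitochondrial limit of 5% (adjusted p = 0.52) and where classes came from counting the markers detected in each cell, without clusters (a per-cell marker gate, 0.13). The Angpt1 call was also lost at that limit (adjusted p = 0.95) and turned at a coarser clustering, where the loop of Henle-like class held 234 and 214 cells in place of 117 and 125.

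**Figure D2:**
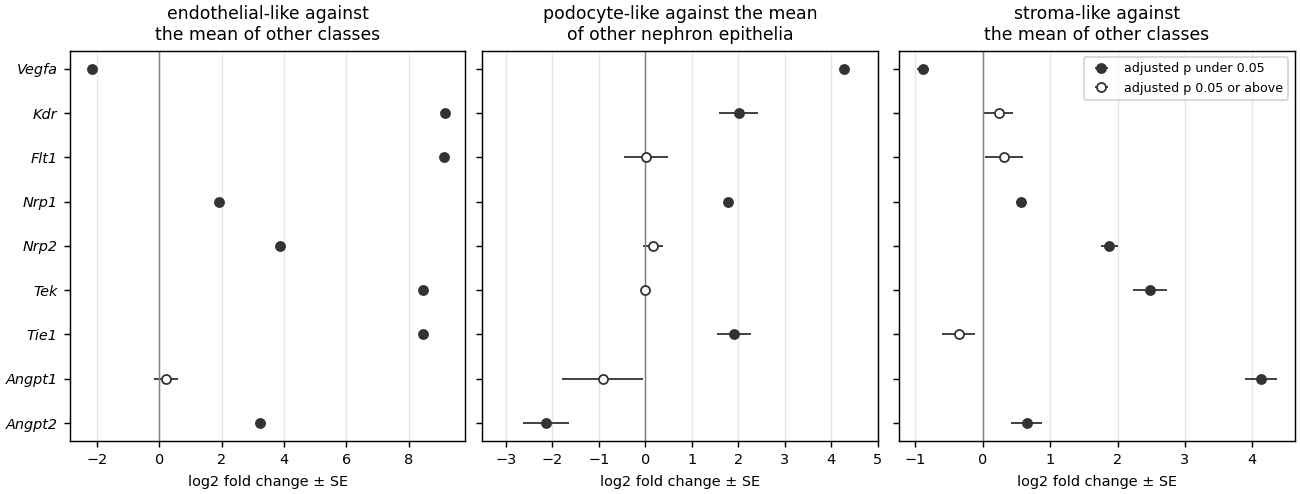
Log2 fold change ± SE of the 9 genes in 3 comparisons between cell classes (edgeR's quasi-likelihood fit on 22 class sums from 2 libraries); filled points have an adjusted p under 0.05. The axes differ in range. The 4 endothelial receptors lie between 8.46 and 9.16 in the left panel, and Vegfa (4.28) and Angpt1 (4.13) lead the middle and right panels. For Tek in the middle panel (-0.0049) the error bar was left out, as its SE was 4.90, so that point is very imprecise.

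Angpt1 (ENSMUSG00000022309, chromosome 15, 42424667 to 42676977), the TEK agonist, had its highest level among the named classes in the stroma. Stroma-like cells had 24.1 and 31.4 CPM on 323 and 337 UMIs, above every other named class in both libraries, and held 31.3% and 47.9% of its UMIs. Mural-like cells had 6.81 and 19.4 CPM, on only 2 and 6 UMIs. Proximal tubule-like cells (13.6 and 7.003 CPM) and ureteric epithelium-like cells (10.4 and 7.16 CPM) overlapped with them and with each other. Endothelial-like cells, which carry its receptor, had 3.25 and 1.77 CPM on 32 and 11 UMIs, and podocyte-like cells had 7 UMIs and 0 UMIs. Stroma-like cells exceeded the mean of the other classes by 4.13 ± 0.24 (log2, SE, adjusted p = 2.6e-13, edgeR's quasi-likelihood test), and endothelial-like cells fell below stroma-like cells by a log2 difference of -3.43 ± 0.37 (adjusted p = 3.7e-08). The size of the first difference depends on reference classes with few UMIs, among them early nephron-like (1 and 4) and loop of Henle-like cells (5 and 2).

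Within the stroma, the level of Angpt1 was highest in the cluster led by Igfbp3, with Lox and Col14a1, which held 139 of the 323 and 129 of the 337 stromal Angpt1 UMIs. It had 58.2 and 94.5 CPM, and the other stroma-like cells 16.7 and 22.2 CPM. The ratio was 3.49 (95% counting interval 2.78 to 4.37) in replicate 1 and 4.26 (3.39 to 5.33) in replicate 2. That cluster was also the stromal site of Nrp2, at 119 and 183 CPM against 14.8 and 16.0 CPM in the remaining stroma. Nrp1 was at 425 and 433 CPM there and at 274 and 256 CPM elsewhere in the stroma.

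Epithelial Angpt1 was likewise unevenly spread. In the proximal tubule-like cluster led by Spp2, it was at 31.1 and 15.2 CPM, and in the other proximal tubule-like cells at 3.91 and 2.72 CPM. An unnamed epithelial cluster led by Tmem52b and S100g, with 106 and 83 cells, held 57.5 and 51.9 CPM on 284 and 180 UMIs. No single cell gave more than 9.15% of those UMIs. Loop of Henle-like cells, whose markers that cluster shared in part, had 1.06 and 0.449 CPM on 5 and 2 UMIs. Through this cluster, cells without a class name held 30.04% and 27.2% of all Angpt1 UMIs.

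Angpt2 (ENSMUSG00000031465, chromosome 8, 18690263 to 18741562), the ligand that can oppose angiopoietin 1, was the least counted of the 9, with 544 and 357 UMIs in all cells. Endothelial-like cells had 19.4 and 20.4 CPM (191 and 127 UMIs). Mural-like cells overlapped with them at 23.8 and 9.70 CPM, but on 7 and 3 UMIs. Proximal tubule-like cells had 6.10 and 4.17 CPM, in overlap with stroma-like cells at 4.25 and 4.09 CPM, and early nephron-like cells had 3.04 and 3.98 CPM. In the endothelial-like class Angpt2 was higher than in the mean of the other classes by 3.24 ± 0.18 (log2, SE, adjusted p = 3.9e-13, edgeR's quasi-likelihood test). The call in stroma-like cells (0.65 ± 0.23, adjusted p = 0.020) was lost at a minimum of 5000 UMIs per cell (0.14) and with the per-cell marker gate (0.12).

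Smaller sources of Angpt2 were seen at cluster level. A proximal tubule-like cluster led by Plau and Ttr had 26.4 and 15.7 CPM (56 and 26 UMIs), and the other proximal tubule-like cells 3.37 and 2.55 CPM. On re-clustering of the stroma-like cells together with the mural-like, a group of 5 and 10 cells led by Ren1, the renin gene of juxtaglomerular cells, held 7 and 6 Angpt2 UMIs, or 149 and 66.2 CPM. So few cells do not fix a level. The sub-cluster of the same re-clustering that was named contractile by its markers, with 23 and 17 cells, held 0 Angpt2 UMIs. That allows up to 14.0 and 14.3 CPM there at a floor of 3 counts. The part of the Ren1-led group in the mural-like level was not tested.

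**Figure D3:**
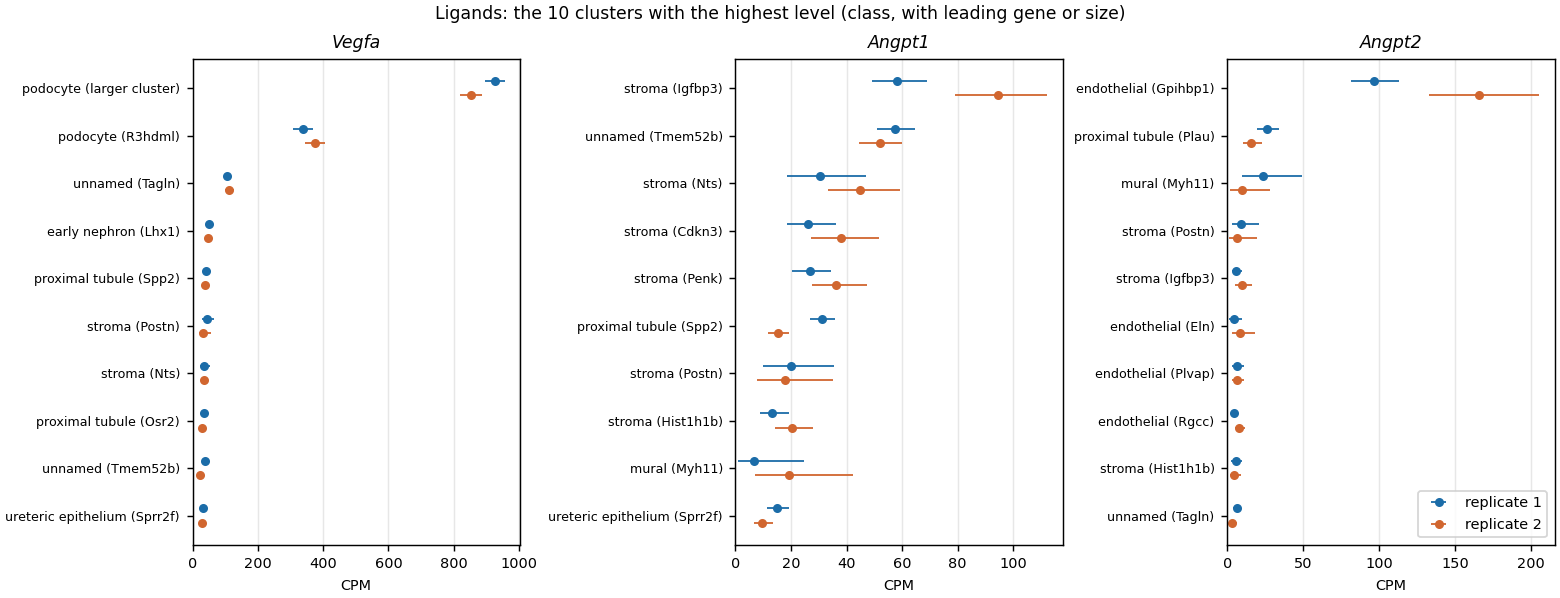
Level in CPM of the ligand genes Vegfa, Angpt1 and Angpt2 in the 10 clusters where each was highest, among clusters with at least 20 cells in each library; labels give the class and the leading gene (for the larger podocyte-like cluster, its size), blue is replicate 1, orange is replicate 2, and bars are exact Poisson 95% intervals. Vegfa falls from 926 and 853 CPM in the larger podocyte-like cluster to 105 and 113 CPM in the third-ranked cluster, whereas Angpt1 is shared between stromal, unnamed and proximal tubule-like clusters.

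The endothelium itself divided into 6 sub-clusters, of which 4 could be named: 1 glomerular by Ehd3, Plat, Gata5 and Tbx3, 1 arterial by Gja5, Gja4, Sox17 and Bmx, and 2 plexus by Aplnr, Plvap and Rgcc. The glomerular sub-cluster held 51 and 27 cells. It was the main endothelial site of Angpt2: 103.5 CPM in replicate 1 (138 UMIs) and 199.8 CPM in replicate 2 (82 UMIs), against 6.22 and 7.75 CPM in the other endothelial-like cells. The ratio was 16.7 (95% counting interval 12.1 to 23.3) and 25.8 (17.7 to 38.0), and the highest single cell gave 18.1% and 20.7% of these UMIs. An Angpt2 UMI was seen in 24 of 51 cells (47.1%) and 16 of 27 cells (59.3%), against 5.39% and 6.74% of the other endothelial-like cells, at median depths of 9523 and 8109 UMIs against 8696 and 9680. Erythroid-like cells had 0 Angpt2 UMIs in 478 and 358 cells, at median depths of 4370.5 and 4461 UMIs.

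Kdr, Nrp1 and Tek of the glomerular sub-cluster also differed from the rest. Kdr was at 1414 and 1196 CPM there and at 647 and 599.8 CPM in the other endothelial-like cells, and Nrp1 at 1546 and 1883 CPM against 539 and 526 CPM. Tek went the other way, with 80.3 and 31.7 CPM (107 and 13 UMIs) against 256 and 229 CPM, and in replicate 2 a single cell held 53.8% of the 13 UMIs. Flt1 (627 and 743 CPM against 561 and 545), Tie1 (297 and 314 against 283 and 265) and Nrp2 (84.0 and 63.3 against 133 and 109) differed less. In the glomerular sub-cluster, high Angpt2, Kdr and Nrp1 therefore coincided with low Tek in both libraries.

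Across the remaining sub-clusters Tek was highest in the plexus sub-cluster led by Thrsp (406 and 379 CPM), followed by the plexus sub-cluster led by Cdh2 (335 and 323 CPM) and the unnamed sub-cluster led by histone genes (294 and 248 CPM). The arterial (173 and 139.5 CPM) and the other unnamed sub-cluster (161 and 142 CPM) were lower, and the glomerular lowest. Nrp1 was lowest in the plexus sub-clusters (320 and 288 CPM, 295 and 239.8 CPM) and at 358 and 349 CPM in the histone-led one. It was higher in the arterial sub-cluster (795 and 753 CPM) and in the other unnamed one (724 and 904 CPM), where a single cell held 15.05% and 20.6% of the Nrp1 UMIs, and highest in the glomerular, where a single cell held 10.4% and 21.5%. Kdr ranged from 419 and 374 CPM in the Cdh2-led plexus to 925 and 963 CPM in an unnamed sub-cluster led by globin genes and Vash1, below the glomerular level. In that unnamed sub-cluster a single cell held 11.8% and 19.9% of the Kdr UMIs. Flt1 and Tie1 varied least, between 499.9 and 743 CPM and between 244 and 317 CPM.

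The sub-cluster levels were also computed with a gate in place of clusters, chosen after the data were seen, which took every endothelial-like cell with at least 2 of the 4 glomerular markers (279 and 177 cells). The directions were kept with smaller gaps. Nrp1 was 1.87- and 1.86-fold and Kdr 1.57- and 1.48-fold higher in gated cells, and Tek stood at 0.679 and 0.627 of the level in ungated cells. Angpt2 was 4.81-fold higher in replicate 1 (3.10 to 7.80), but in replicate 2 the ratio of 1.41 had a counting interval of 0.968 to 2.08. No test of these differences across kidneys was made.

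**Figure D4:**
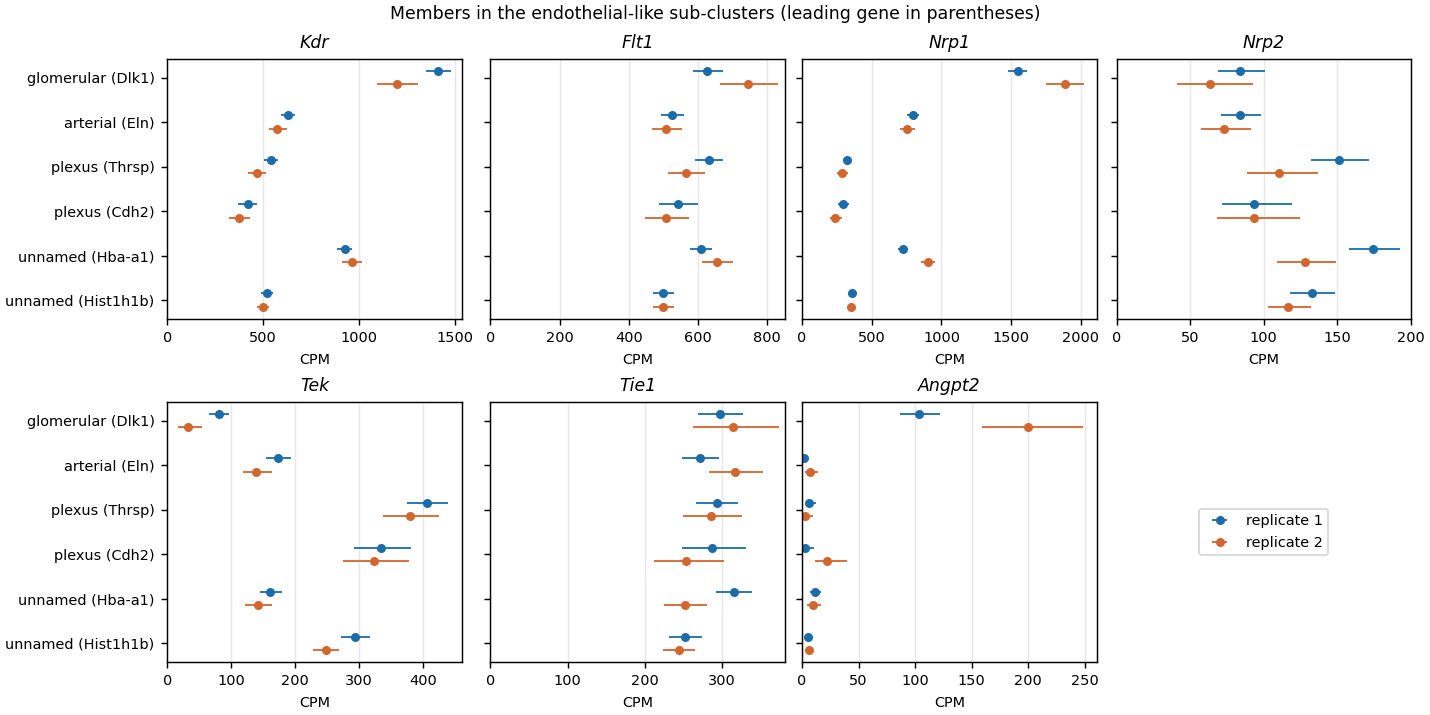
Level in CPM of 7 genes in the 6 endothelial-like sub-clusters, named by markers where possible and with the leading gene in parentheses; blue is replicate 1, orange is replicate 2, bars are exact Poisson 95% intervals. The glomerular sub-cluster is highest for Kdr, Nrp1 and Angpt2 and lowest for Tek in both libraries, and Flt1 and Tie1 differ little between sub-clusters.

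Most stromal Tek came from 1 small cluster led by Postn and Clec3b (66 and 46 cells). It had 110 and 89.3 CPM of Tek (61 and 40 UMIs), and the other stroma-like cells 2.26 and 1.65 CPM, a ratio of 48.7 (95% counting interval 30.8 to 78.7) and 54.1 (29.97 to 102). A Tek UMI was present in 34 of the 66 cells and 22 of the 46 cells. Endothelial genes were also counted there, though not in the proportions of the endothelium: Cdh5 was at 68.5 and 51.3 CPM, Kdr at 16.2 and 29.0 CPM, Flt1 at 32.5 and 6.70 CPM, Tie1 at 1.80 and 8.93 CPM and Pecam1 at 12.6 and 15.6 CPM. The summed level of the 8 endothelial markers was 243 and 337 CPM in this cluster, 234 and 199 CPM in the whole stroma-like class and 6522 and 5929 CPM in endothelial-like cells, and no endothelial marker was at 0 in the stroma. Their part in the Tek level was not tested. Nrp1 was high in the same cluster, at 732 and 703 CPM against 283 and 260 CPM in the other stroma-like cells.

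Taking the comparisons as wholes, endothelial-like cells differed from the mean of the other classes in 8 of the 9 genes, 7 higher and 1 (Vegfa) lower, in a comparison that called 62.2% of the 15194 genes tested. The median log2 difference of the 9 was 3.86, against -0.04 for all genes tested. Nrp2 was higher by 3.86 ± 0.10 (SE, adjusted p = 4.8e-20, edgeR's quasi-likelihood test), and Angpt1 did not pass (0.21 ± 0.39, adjusted p = 0.69). Set directly against stroma-like cells, endothelial-like cells differed in all 9, with 52.6% of genes called: 7 were higher, from Nrp1 (1.18 ± 0.11) to Kdr (7.81), and Angpt1 and Vegfa (-1.13 ± 0.14) were lower. The 2 comparisons share the endothelial-like sums.

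In podocyte-like cells 5 of the 9 were called against the other nephron epithelia, 4 higher and 1 lower, where 63.5% of all genes were called, and the median of the 9 was 0.17 against -0.12. Beside Vegfa and Nrp1, Kdr (2.01 ± 0.43) and Tie1 (1.91 ± 0.36) were higher and Angpt2 (-2.13 ± 0.50) lower (adjusted p = 2.8e-04, 7.0e-05 and 7.6e-04, edgeR's quasi-likelihood test). These rest on few counts, namely 12 and 12 UMIs of Kdr, 11 and 9 of Tie1 and 3 and 4 of Angpt2 in podocyte-like cells. Kdr and Tie1 lost their calls at a mitochondrial limit of 5% (adjusted p = 0.12 and 0.26), Kdr also with the marker gate (0.079), Tie1 also without doublet removal (0.15), and Angpt2 at a minimum of 5000 UMIs (0.47). With that minimum, which gave 560 and 400 podocyte-like cells, 6 of the 9 were called, all 6 higher, and the median of the 9 was 1.43. The median was 0.91 with the marker gate and -0.08 at the mitochondrial limit of 5%. The 8 endothelial markers summed to 1348 and 1496 CPM in podocyte-like cells, against 379 and 359 CPM in early nephron-like cells, and 2 of the 8 were detected in at least 10% of podocyte-like cells. Their part in the Kdr and Tie1 values was not tested.

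Stroma-like cells differed from the other classes in 6 of the 9, 5 higher and 1 lower, where 60.7% of genes were called, with a median of 0.57 against -0.02. Angpt1, Tek (2.48 ± 0.25, adjusted p = 8.2e-09), Nrp2 (1.88 ± 0.13, adjusted p = 5.1e-12), Angpt2 and Nrp1 were higher and Vegfa lower (edgeR's quasi-likelihood test). With the per-cell marker gate 7 of the 9 were called, 6 higher and 1 lower (8718 of 15133 genes). Without doublet removal 7 were called, 5 higher and 2 lower (9473 of 15501 genes), and at a minimum of 5000 UMIs 5 (9251 of 15483 genes). Between mural-like and stroma-like cells 3 of the 9 were called, and 11.4% of all genes (5.67% higher and 5.68% lower). Nrp2 (1.499 ± 0.27, adjusted p = 4.2e-04) and Angpt2 (2.04 ± 0.61, adjusted p = 0.032) were higher in mural-like cells and Nrp1 lower (-0.67 ± 0.18, adjusted p = 0.016). The contractile sub-cluster held 0 Angpt2 UMIs, and the Angpt2 call rests on 7 and 3 mural-like UMIs, or 23.8 and 9.70 CPM. It was lost at Leiden resolution 0.5, where the difference was -0.0081. The median over all genes was -0.25 here, and with DESeq2's scaling it was 0.06. The genes called then split into 1371 higher and 469 lower, in place of 862 and 863, and Nrp1 missed the threshold (adjusted p = 0.053). At a mitochondrial limit of 5%, where the mural-like class held 134 and 81 cells in place of 31 and 27, neither Nrp1 (adjusted p = 0.12), Nrp2 (0.11) nor Angpt2 (0.53) was called, and Nrp2 and Angpt2 changed sign. Another 3 of the 9 were called there, Vegfa higher (2.34) and Tek (-3.499) and Angpt1 (-2.47) lower.

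Other genes of the pathway were taken from a list of 37 ligands, receptors, class 3 semaphorins, transducers, VEGF-responsive and oxygen-response genes, of which 35 could be tested. In endothelial-like cells 23 of the 35 were higher and 6 lower than in the mean of the other classes, where 32% and 30.2% of all genes were. The most raised were Esm1, a proteoglycan gene of VEGF-stimulated tip cells (8.92 ± 0.19), Ptprb, the phosphatase that restrains TEK (8.81 ± 0.10), the Notch ligand Dll4 (7.73 ± 0.20), the VEGF-C receptor Flt4 (7.30 ± 0.17) and Apln (7.06 ± 0.14). Their levels in endothelial-like cells were 119 and 132 CPM for Esm1, 396 and 358 for Ptprb, 59.4 and 50.5 for Dll4, 78.9 and 69.2 for Flt4, and 129 and 96.0 for Apln. The lowest were the semaphorins Sema3c (-4.80 ± 0.31) and Sema3b (-3.66 ± 0.25), Svep1, an extracellular ligand of TIE1 (-2.97 ± 0.58), Plxna3 (-2.56 ± 0.32) and the FLT1 ligand Vegfb (-1.03 ± 0.11). Each of these 10 had an adjusted p of at most 1.3e-04 in edgeR's quasi-likelihood test.

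Podocyte-like cells had high levels of 2 semaphorins, ligands of neuropilins and plexins. Sema3e, at 162 and 136 CPM, was higher than in the other nephron epithelia by 11.06 ± 0.23, Sema3g, at 587 and 527 CPM, by 8.08 ± 0.10, and the adaptor gene Dok2 by 5.54 ± 0.23. Sema3c (-4.70 ± 0.28), Sema3d (-3.77 ± 0.60) and Apln (-3.29 ± 0.96) were lower. Of the 35 genes 16 were higher and 9 lower, against 29% and 34.4% of all genes. Since Sema3e is near 0 in the reference classes, its difference is only a rough size.

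In stroma-like cells 16 of the 35 were higher and 8 lower, against 31.6% and 29.1% of all genes. Vegfd, which the files list as Figf, was at 51.6 and 31.7 CPM and higher by 7.13 ± 0.18. Sema3a, a repellent ligand of NRP1, was at 70.4 and 94.6 CPM and higher by 6.53 ± 0.13, and Svep1, at 53.5 and 46.9 CPM, by 5.04 ± 0.14. Sema3b (-2.93 ± 0.21), Sema3g (-2.75 ± 0.27) and Sema3f (-2.16 ± 0.14) were lower. In the direct comparison of endothelial-like with stroma-like cells, which shares the stroma-like sums, Ptprb (7.86 ± 0.18), Flt4 (7.76 ± 0.34) and Dll4 (7.51 ± 0.38) were the highest of 21 and Svep1 (-7.01 ± 0.29), Figf (-6.79 ± 0.36) and Sema3a (-4.77 ± 0.21) the lowest of 8, against 26.6% higher and 25.9% lower among all genes.

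Mural-like cells differed from stroma-like cells in 5 of the 35, 3 higher and 2 lower, where 11.4% of all genes were called. At a mitochondrial limit of 5% the counts were 8 higher and 12 lower of 36. Pgf, the FLT1 ligand placental growth factor, was at 44.3 and 38.8 CPM (13 and 12 UMIs) against 2.09 and 2.61 CPM and higher by 4.19 ± 0.52. Mcam, a cell adhesion gene that also acts as a KDR co-receptor, was higher by 3.56 ± 0.26 and Sema3c by 2.26 ± 0.37, and Svep1 (-3.28 ± 0.60) and Sema3a (-1.77 ± 0.40) were lower. From proximal tubule-like to loop of Henle-like cells 6 of the 35 were higher and 9 lower, against 19.7% and 24.6% of all genes. Plxna4 (4.39 ± 0.42), the hypoxia-inducible factor Epas1 (2.08 ± 0.37) and Sema3f (1.70 ± 0.16) led, and Sema3d (-4.77 ± 0.34), Apln (-4.59 ± 0.52) and Svep1 (-2.31 ± 0.88) were lowest.

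The genes whose class pattern was most like that of each of the 9 were listed by Pearson's r of log2(CPM + 1) over the 11 class means, among 12324 genes with at least 10 CPM in 1 class. With 11 points that share 2 libraries, r is a description only. For Kdr they were Tie1 (r = 0.979), Gpihbp1 and Cdh5, for Flt1 Rasgrp3 (0.989), Exoc3l2 and Aplnr, for Tie1 Fam167b (0.991), Robo4 and Aplnr, and for Tek Emcn (0.981), Klhl4 and Esm1. Vegfa was closest to Ccdc92 (0.949), Gpc1 and Mib2, and Nrp1 to Leprot (0.986) and Ano6. Nrp2 was closest to Tfpi (0.955), Tubb6 and BC028528. Angpt1 had Egfr (0.946), Tbx2 and Agtr1a as its nearest genes, and Angpt2 had Kctd17 and Dkk2 among its nearest.

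Single cells were also compared after each was thinned to 4600 UMIs, which left out 86 and 54 endothelial-like cells that were shallower. Kdr and Flt1 were both seen in 77.4% and 77.9% of the 614 and 403 endothelial-like cells left, next to 76.9% and 77.4% for the product of their shares. Tek and Tie1 were both seen in 45.8% and 39.2%, next to 44.6% and 39.8%. These products lay inside the 95% binomial intervals of the measured shares (Clopper-Pearson). Product and measured share come from the same cells, and the intervals do not hold the single-gene shares fixed. They also cover counting of cells only. This therefore does not decide whether the genes were seen together more or less often than the product.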

How the data were processed

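The deposited values are raw UMI counts per gene and barcode in unfiltered matrices of 2 libraries, from the authors' Cell Ranger run. Per the submitters' processing notes this was Cell Ranger 6.0.1 with mm10, while the file headers name version 4. Gene positions are RefSeq's on GRCm38.p6, and all 9 symbols matched. The members and the gene lists were chosen with earlier results of these data known.

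The libraries held 163405630 and 135436576 UMIs. Barcodes with at least 2000 UMIs (6910 and 5917) were kept, those over 10% mitochondrial UMIs (690 and 768) and Scrublet's highest scores at 0.8% per 1000 cells (310 and 212) removed. Its automatic threshold called 63 and 22. Clustering used scanpy 1.11.5 (2000 variable genes, 30 principal components, 15 neighbours, Leiden resolution 1) without the 9 genes, the 37 pathway genes, 18 cell-cycle and 6 sex-linked genes, EYFP and mitochondrial genes. Each cluster took the name of the best-scoring of 13 marker lists (mean of scaled markers), if 3 or more of its markers were found in 10% of cells. A minimum score of 0.3, at least 20 cells, a second class at no more than 0.8 of the best class's median, and counting sub-type markers as a class's own were rules set after the clusters were seen. The 6 clusters left unnamed held 532 and 429 cells. No cluster was distal tubule-like, so the comparison planned for the distal segments used loop of Henle-like cells alone. Endothelial-like, podocyte-like and stroma-like plus mural-like cells were clustered again at resolution 0.5.

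UMIs were summed per class and library. The 22 sums entered 1 fit in edgeR 4.0.16 (R 4.3.3; TMM, filterByExpr, library as a block, quasi-likelihood test) with 10 residual degrees of freedom, with Benjamini-Hochberg adjustment over the 15194 genes tested and a threshold of 0.05. Tested on simulated data for endothelial-like against stroma-like sums (14961 genes, dispersion 0.02), it called 77 of 107 genes changed by 1 on the log2 scale and 92 of 93 changed by 2, with 5 calls among 14761 unchanged genes. The common dispersion fitted to the data was 0.0041. The changed genes were drawn only from those well counted in stroma-like sums, so these rates do not cover calls that rest on few UMIs. CPM carry exact Poisson and shares exact binomial 95% intervals, which cover counting error only. All 9 members are named. Of the pathway list the text names the 5 highest and 5 lowest called in the first comparison and the 3 highest and 3 lowest in each other. Alternatives were a minimum of 5000 UMIs, a 5% mitochondrial limit, no doublet removal, Leiden resolution 0.5, a per-cell marker gate, DESeq2 1.42.0, no filter on low counts, no block, no thinning and each library left out. No sequences are given. Some genes among the leading or most similar ones are not reported here.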

Additional observations from a re-analysis of the deposited data

Results flagged for a closer look

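Signal for 8 of the 9 genes was also present outside cells, in the 39702 barcodes of each library that held 10 to 100 UMIs and entered no comparison. It lay above the limit that a count of 0 allows. The mean levels there were 56.2 CPM for Vegfa, 59.6 CPM for Kdr, 83.6 CPM for Flt1 and 167 CPM for Nrp1. Nrp2 was at 42.0 CPM, Tek at 18.1 CPM, Tie1 at 22.6 CPM and Angpt1 at 8.26 CPM. Angpt2, with 2 and 1 UMIs, did not exceed that limit. For Flt1 and Nrp2 the level outside cells was above that over all cells (44.8 and 25.7 CPM), in both libraries. In the other named classes, taken whole, the levels of Kdr, Flt1 and Tie1 were at most 7.17 CPM, below those in the free RNA, and the part of free RNA in them was not tested. Single clusters outside the endothelial-like class stood higher, among them the Postn-led stromal cluster (Flt1 at 32.5 CPM in replicate 1) and an unnamed cluster of shallow cells led by Nrgn, with UMIs for 8 of 8 endothelial markers and Kdr at 281 and 272 CPM.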

How the results depend on the processing

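For the 9 genes in 6 comparisons, 423 values with a test were recomputed, and 375 kept their direction and their side of the threshold. Of the others 12 lost a call, 12 gained one and 24 turned, 18 of these with no call under either setting. Without a library there is no test: 19 of these 108 values moved by more than the SD of the single-library values, and 5 turned that had no call. The SD of 2 values is larger than the distance of each from their midpoint. Values that did not move by this rule therefore show no stability between libraries. With a mitochondrial limit of 5%, 3 of the 9 were called in podocyte-like cells (8685 of 13987 genes), 5686 genes were called between mural-like and stroma-like cells (134 and 81 mural-like cells), and 3826 between loop of Henle-like and proximal tubule-like cells. In the mural-like comparison Vegfa then stood at 2.34 (adjusted p = 2.8e-12, edgeR), Nrp2 at -0.34 and Angpt2 at -0.37, and Angpt2 was at -0.0081 at Leiden resolution 0.5. In the loop of Henle-like comparison Kdr was at -2.61 without doublet removal (adjusted p = 0.022) and Angpt1 at 0.71 at Leiden resolution 0.5 (adjusted p = 0.013). The turned values without a call were as follows (log2). At the 5% limit, Tie1 was at 0.88 and Flt1 at 0.52 in mural-like cells, Kdr at -0.00088 in stroma-like cells, Nrp2 at -0.079 and Flt1 at -0.86 in podocyte-like cells, and Tek at 0.065, Tie1 at -1.42 and Kdr at -1.70 in loop of Henle-like cells. Without doublet removal, Angpt1 was at -0.19 in endothelial-like cells, Kdr at -0.95 and Flt1 at -0.64 in stroma-like cells, and Tie1 at -1.81 in loop of Henle-like cells. At a minimum of 5000 UMIs, Tek was at 0.41 in podocyte-like and Kdr at -0.059 in stroma-like cells. At Leiden resolution 0.5, Angpt1 was at -0.78 in endothelial-like and Flt1 at -0.086 in podocyte-like cells. In podocyte-like cells Tek was at 0.031 with DESeq2 and Flt1 at -0.0062 without the filter on low counts. The cause was not tested. The marker gate gave no mural-like class and so no value. Fitting without the replicate block changed no call among the 9 genes. Depth limits the order of classes in which a gene has few UMIs, as for Kdr, Flt1 and Tie1 in most classes outside the endothelium.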

Other observations

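The 6 oxygen-response genes of the pathway list act upstream of Vegfa transcription: Hif1a, Epas1 and Arnt encode the hypoxia-inducible factors, and Vhl, Egln1 and Egln3 the proteins that mark them for decay. In podocyte-like cells 4 of the 6 were higher than in the other nephron epithelia, Egln3 by 1.65 ± 0.34, Epas1 by 1.17 ± 0.31, Arnt by 0.96 ± 0.11 and Hif1a by 0.37 ± 0.12 (log2, SE, edgeR's quasi-likelihood test, adjusted p between 2.6e-08 and 0.0082), in a comparison where 29% of all genes were higher. In the podocyte-like class Epas1 stood at 4.88 and 5.62 CPM and Egln3 at 4.51 and 3.82 CPM. Endothelial markers were also counted in that class, and their part in these low values was not tested. Vhl (0.13 ± 0.15) and Egln1 (-0.05 ± 0.09) did not pass. In endothelial-like cells, where Vegfa was low, Epas1 stood at 292 and 255 CPM and exceeded the mean of the other classes by 6.50 ± 0.09, and Egln3 by 4.72 ± 0.15. Arnt (0.49 ± 0.09), Hif1a (0.31 ± 0.10) and Egln1 (0.21 ± 0.07) were also higher, and Vhl (0.16 ± 0.11) did not pass, so that 5 of the 6 were higher where 32% of all genes were. This group of the list was chosen for description after its values were seen.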
